A study of Homo sapiens with 12 samples.

Results

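The regions described here each carry a single Alu name and have no other single-Alu region on the opposite strand within 1000 bp. They were chosen by name, strand and distance alone, whatever their read counts, and they number 368835 of the 5254113 strand-specific regions counted. The other 82230 single-Alu regions had such a neighbour. The 2 kinds are called unpaired and paired Alu regions below. The name unpaired has to be read narrowly, because regions that list several repeats do not count as neighbours under this rule. When any opposite-strand region with an Alu among its names was also counted as a neighbour, 165415 (44.8%) of the unpaired regions had one within 1000 bp. Of the 6788 unpaired regions with enough reads to be tested, 6047 had one and 741 had none, so the data do not bear out that most of the tested regions lack an opposite-strand Alu nearby.

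Alu elements are short primate retrotransposons derived from the 7SL RNA of the signal recognition particle, and they fall into an old AluJ, an intermediate AluS and a young AluY class. An Alu and an inverted copy in the same RNA can fold back on each other into a long double-stranded hairpin, which ADAR1 edits and which the cytosolic sensor MDA5 can bind when it is not edited. An Alu with no inverted copy nearby lacks the partner for that hairpin, and its RNA can become double-stranded only with another partner or with an antisense transcript. The antibody J2 binds double-stranded RNA with little regard to sequence and is used to precipitate it.

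J2 was used to precipitate RNA from NCI-H1944, an established human lung adenocarcinoma line, and the precipitated RNA was made into stranded libraries. IFNAR1sg cells carried a guide against IFNAR1, a subunit of the type I interferon receptor, and SCR cells are labelled wild type. Cells of both genotypes were given 1 of 3 treatments. The MPS1i groups received BAY-1217389, an inhibitor of the spindle checkpoint kinase MPS1, at 100 nM for 48 h, and were cultured for 24 h after washout. The IFNb groups received DMSO for 48 h and then recombinant IFNb at 5 ng/ml for 24 h. The DMSO groups received DMSO and were cultured for 24 h without IFNb. There were 2 libraries in each of the 6 groups. Nothing states that these came from separate cultures or how many clones IFNAR1sg represents, so the p-values below measure the spread between libraries, which may be technical. Input RNA is not analysed here, so more of a transcript in the cells and more of it precipitated cannot be told apart, nor can fewer cells making an RNA and less RNA per cell.

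Library totals ranged from 3739443 to 7430687 reads in regions, and the SCR IFNb pair had the lowest scaling factors, 0.855 and 0.869, against 0.948 to 1.08 in the other 10 libraries. Of 10 lung epithelial marker genes, 8 had reads, and their summed level was 79.1 to 132 counts per 1000000 reads of the scaled total (CPM) across libraries. Fibroblast and immune markers summed to at most 2.89 and 0.722 CPM, and no immune marker had 15 reads. The 3 endothelial markers summed to between 2.59 and 9.39 CPM. One of them, VWF, had 3.18 and 2.15 CPM in IFNAR1sg MPS1i libraries, against 0.0 and 0.13 CPM in IFNAR1sg DMSO libraries (adjusted p = 9.12e-05), and its part in the results was not tested. IFNAR1, the targeted gene, has an unpaired AluSz6 region beside an exon (chr21:33343676-33344099, plus strand, GRCh38). It held 15 and 13 reads in IFNAR1sg DMSO libraries, against 69 and 60 reads in SCR DMSO libraries. The log2 difference was -2.12 ± 0.37 (SE, adjusted p = 0.00181, edgeR quasi-likelihood F-test with Benjamini-Hochberg adjustment over all 89111 regions tested), and the IFNAR1sg libraries were the lower ones under every treatment.

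One example of unpaired regions, picked after its values had been seen, lies in B2M, the invariant light chain of MHC class I. The gene holds an AluJr region and an AluSz region on its own strand, which share 227 and 813 bases with annotated exons and so count as exon-sharing. The region around the AluJr had 4.04 and 7.75 CPM in SCR MPS1i libraries, against 1.36 and 0.792 CPM in SCR DMSO libraries. These groups do not overlap, and the log2 change was 2.44 ± 0.53 (adjusted p = 4.12e-04). Without SCR MPS1i replicate 2 the change was 1.88 and the call was lost. The region around the AluSz had 2.28 and 2.11 CPM with MPS1i, against 0.273 and 0.158 CPM with DMSO. Its change of 3.2 ± 1.07 (adjusted p = 0.0278) rested on few reads, and its call was lost without any one of the 4 libraries. With IFNb neither B2M region passed the test in SCR cells, with log2 changes of 0.85 and 2.55 (adjusted p = 0.322 and 0.0851).

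The unpaired regions held 4397285 reads over the 12 libraries, and 161997 of them (43.9%) held none. The test filter kept 6788 (1.84%) for the fit. AluS was the largest class with 229314 regions, of which 3849 were tested. AluJ had 79140 regions and 2179 tested, and AluY had 60025 and 739 tested. A further 356 regions, 21 of them tested, are named Alu with no class. The share of regions without a read was 33.3% for AluJ, 44.7% for AluS and 55.0% for AluY. The untested regions were short, so that the median length was 101 bp over all members and 732.5 bp over those tested. A tested region is thus usually longer than an Alu and includes flanking sequence. Only 1047 (15.4%) of the tested regions were at most 400 bp long.

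Most reads came from introns and from the edges of exons. By GENCODE 29 annotation, 198108 unpaired regions (53.7%) were intronic on the strand of a gene, and these held 45.1% of the unpaired Alu reads. Another 119660 (32.4%) were intergenic with 7.58% of the reads, and 50108 (13.6%) lay antisense to a gene with 3.25%. The 959 regions (0.26%) that share at least 1 base with an exon held 44.1% of the reads, although 808 of them share at most 2 bases. Where the reads lie within such a region was not tested, so summed levels are given below both with and without these regions. The classes were placed differently. The intronic share of regions was 63.5% for AluJ, 52.6% for AluS and 45.2% for AluY, while the intergenic share was 24.3%, 33.3% and 39.9%.

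Some properties of the table bear on what unpaired means. An Alu appears as a pair of overlapping regions, one for each strand, in 139655 cases, and the Alu name stands on a single strand in 138955 of them. A named region therefore holds RNA that reads through the element in the direction of the name. The names were checked on 122 exon stretches of named regions, by searching both strands for TGTAATCCC, GGCTGAGGC, GGTGAAACC and AGCCTGGGC, short runs of the Alu consensus that do not overlap each other in it. Of the 59 stretches with a match, 56 had more on their own strand and 3 had more on the other. In addition, 57704 unpaired regions (15.6%), among them 2614 (38.5%) of those tested, had within 1000 bp a region of their own strand annotated as an Alu but carrying no Alu name, which is RNA through an Alu of the other orientation. The median distance to the nearest opposite-strand single-Alu region was 9289 bp. Just beyond the limit, at 1001 to 1100 bp, lay 6185 members, of which 55 were tested with a median log2 change of 0.15 with MPS1i and -0.26 with IFNb in SCR cells. Just inside it, at 900 to 1000 bp, lay 6678 paired regions, of which 57 were tested with medians of -0.13 and -0.5.

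Summed over all members, unpaired AluJ and AluY were lower with MPS1i in SCR cells and unpaired AluS was not. Unpaired AluJ summed to 15917 and 15204 CPM in SCR MPS1i libraries, against 17000 and 16343 CPM in SCR DMSO libraries, a log2 difference of the means of -0.1. Unpaired AluS summed to 39074 and 38451 CPM with MPS1i and 38590 and 38057 CPM with DMSO, a difference of 0.02 with overlapping libraries. Unpaired AluY summed to 5066 and 5101 CPM with MPS1i and 5656 and 5623 CPM with DMSO, a difference of -0.15. With IFNb in SCR cells AluS stood apart from the other classes, at 45457 and 45257 CPM, a difference of 0.24 from the SCR DMSO mean that became -0.08 without the TMM scaling factors. AluJ with 16223 and 15897 CPM and AluY with 4875 and 5138 CPM differed from their SCR DMSO means by -0.05 and -0.17. An AluSc region of TXNRD1 alone held 9156 and 8474 CPM of the AluS sum with IFNb and 4316 and 4022 CPM with DMSO. These are levels over libraries, and the class sums were not tested.

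Without the exon-sharing regions all 3 classes were lower with either treatment in SCR cells, and AluS with IFNb changed direction. AluJ then had 8709 and 8585 CPM in SCR MPS1i libraries, against 11040 and 10817 CPM in SCR DMSO libraries, a difference of -0.34. AluS had 17692 and 18768 CPM with MPS1i and 21435 and 22320 CPM with DMSO, a difference of -0.26. AluY had 3387 and 3602 CPM with MPS1i and 4123 and 4195 CPM with DMSO, a difference of -0.25. In each class both MPS1i libraries lay below both DMSO libraries. With IFNb in SCR cells the levels were lower still, at 6444 and 6708 CPM for AluJ, 13774 and 15243 CPM for AluS and 2628 and 2952 CPM for AluY. The differences from the SCR DMSO means were -0.73, -0.59 and -0.58. The exon-sharing members had a mean of 29095 CPM in SCR MPS1i cells and 42637 CPM in SCR IFNb cells, against 23712 CPM in SCR DMSO cells. The intronic members alone were lower with MPS1i in SCR cells by larger differences, of -0.52 for AluJ, -0.46 for AluS and -0.44 for AluY.

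In IFNAR1sg cells all 3 classes were lower with MPS1i, with and without the exon-sharing regions, and with IFNb the groups overlapped. Over all members AluJ had 15728 and 14812 CPM in IFNAR1sg MPS1i libraries, against 16694 and 17249 CPM in IFNAR1sg DMSO libraries, a difference of -0.15. For AluS the values were 36787 and 35696 CPM with MPS1i and 37995 and 40041 CPM with DMSO, a difference of -0.11. For AluY they were 5140 and 5049 CPM with MPS1i and 5551 and 5987 CPM with DMSO, a difference of -0.18. The MPS1i and DMSO groups did not overlap in any class. Without exon-sharing regions these differences were -0.24, -0.17 and -0.18. IFNAR1sg IFNb libraries held 16586 and 17072 CPM of AluJ, 38668 and 40177 CPM of AluS and 5344 and 5908 CPM of AluY, with differences of -0.01, 0.01 and -0.04 from the IFNAR1sg DMSO means.

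**Figure D1:**
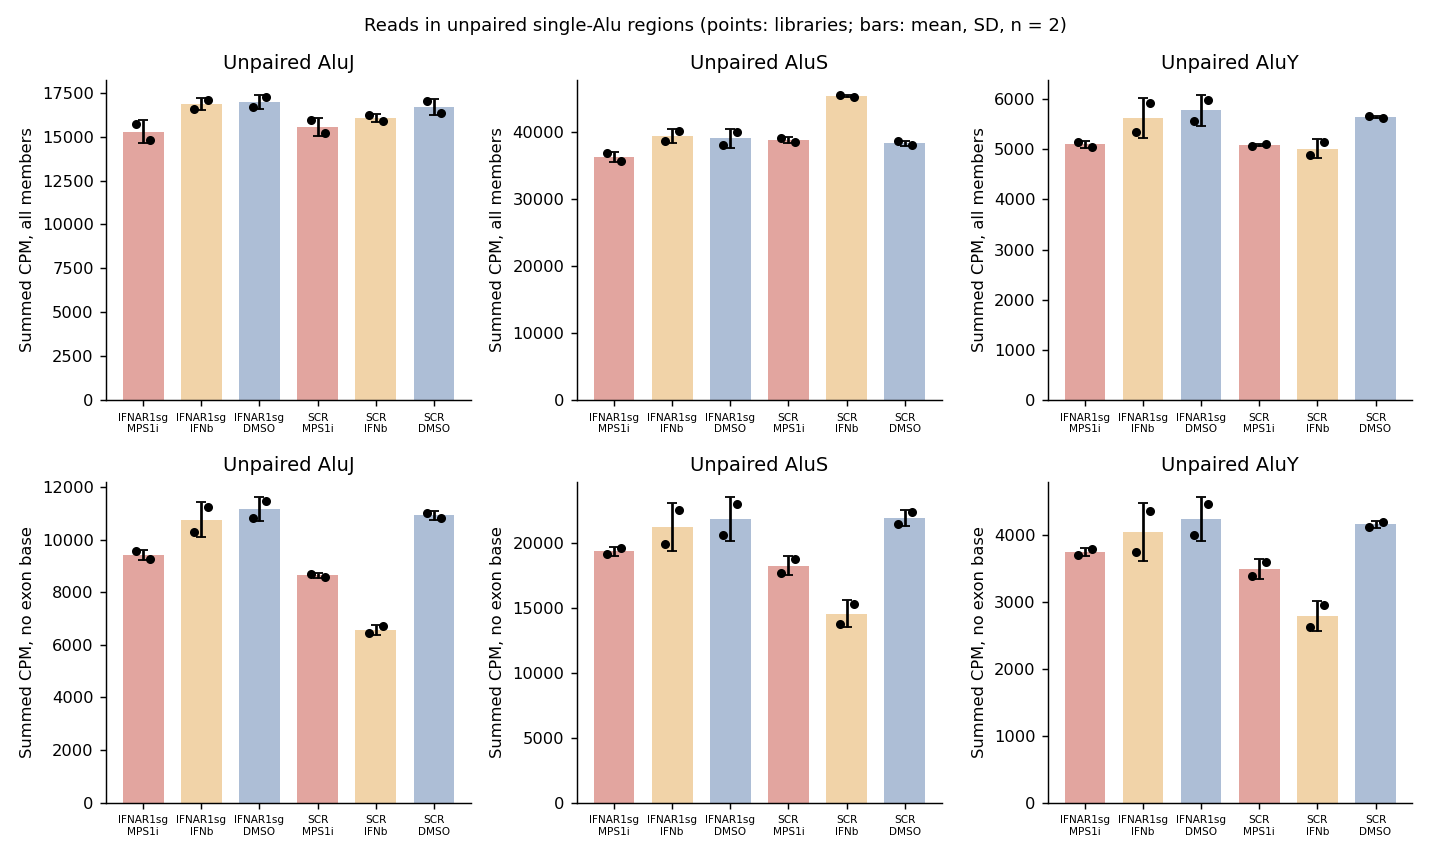
Summed level of unpaired AluJ, AluS and AluY regions in CPM, over all members (upper row) and over members that share no base with an exon (lower row), for each library (points), with the group mean (bars) and SD (error bars, n = 2). In the upper AluS panel the SCR IFNb libraries are the highest at 45457 and 45257 CPM, and in the 3 lower panels they are the lowest.

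Among single regions, MPS1i in SCR cells lowered more unpaired Alu regions than it raised. Of the 6788 tested, 327 (4.82%) were higher and 898 (13.2%) were lower at an adjusted p under 0.05, against 9.5% higher and 8.0% lower among all 89111 tested regions. The median log2 change was -0.52 for the members and -0.03 for all regions. AluJ had 104 higher and 324 lower (median -0.62), AluS 182 and 476 (-0.48), and AluY 39 and 95 (-0.42). Of the 1162 paired Alu regions tested, 61 (5.25%) were higher and 85 (7.31%) lower, with a median of -0.24. Leaving out a library moved the counts by over 1.5 times. There were 204 higher and 387 lower regions without SCR MPS1i replicate 1, 187 and 330 without SCR MPS1i replicate 2, 508 lower without SCR DMSO replicate 1, and 198 and 553 without SCR DMSO replicate 2.

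The direction of these counts depended on what counts as a neighbour and on where a region lies. The 741 tested members with no Alu-naming region of any kind on the other strand within 1000 bp had 59 (7.96%) higher and 25 (3.37%) lower regions, with a median of 0.15. The 6047 that had one gave 268 (4.43%) higher and 873 (14.4%) lower, with a median of -0.6. The subsets also differed in place. Of the 741 members 40.1% were intronic, and of the 6047 members 83.3% were. Within introns, 297 members without such a region had 14 higher and 21 lower (median -0.23), and 5036 members with one had 128 and 821 (median -0.8). The part of neighbour density, gene structure and place in this difference was not tested.

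By place, 142 of the 5333 intronic members were higher and 842 (15.8%) were lower, with a median of -0.77. All 51774 tested intronic regions had 4.62% higher and 11.8% lower, with a median of -0.46, and paired intronic Alu regions had 11 and 70 of 623 with a median of -0.55. Intronic regions of all 3 kinds thus had more lower than higher calls. The members outside introns leaned the other way, with 25 of 275 antisense members higher and 5 lower (median 0.26), 60 and 17 of 586 intergenic members (0.17), and 100 and 34 of 594 exon-sharing members (0.18). All tested regions of these places had medians of 0.38, 0.29 and 0.33, each above that of the members. By the medians, the lean outside introns was thus not particular to the members. By length, members of at most 400 bp had 73 higher and 80 lower of 1047 with a median of -0.17, and longer ones had 254 and 818 of 5741 with a median of -0.57.

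**Figure D2:**
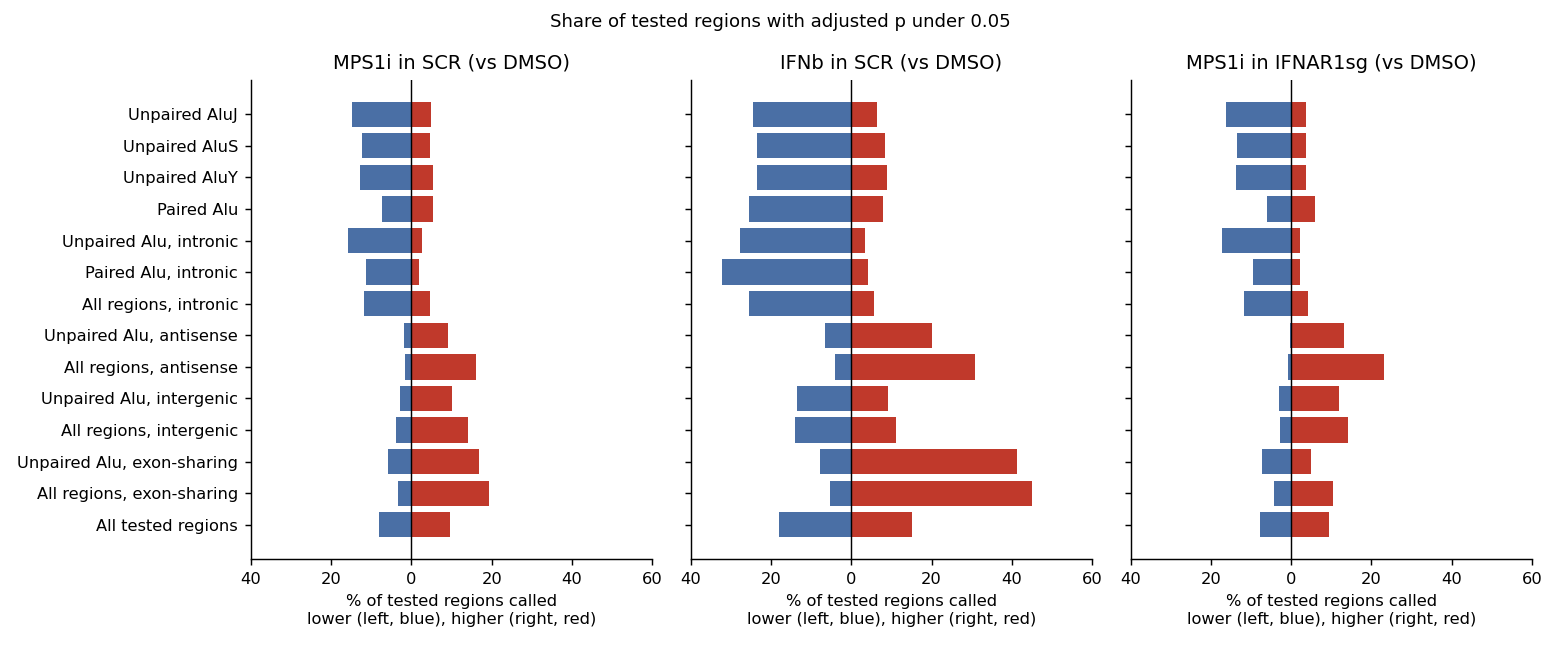
Share of tested regions called lower (blue, left) and higher (red, right) with MPS1i in SCR cells, IFNb in SCR cells and MPS1i in IFNAR1sg cells, in percent, for unpaired Alu regions by class, paired regions, the 4 places, and all tested regions. Intronic sets show more lower than higher calls in every panel, and the intergenic, antisense and exon-sharing sets show more higher than lower calls with MPS1i in SCR cells.

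The members raised by MPS1i in SCR cells with the 10 smallest p-values lay in, beside or opposite PLSCR1, RIGI, PARP12, LAP3, IFITM3, TRUB1, RNF213 and HMGCS1. The smallest p belonged to an AluSq2 region that starts 2856 bp past the end of PLSCR1, an interferon-induced phospholipid scramblase (chr3:146510739-146512324, minus strand). It had 247 and 236 CPM in SCR MPS1i libraries, against 54.3 and 50.4 CPM in SCR DMSO libraries, and the groups lay far apart. The log2 change was 2.2 ± 0.15 (adjusted p = 1.40e-20). The neighbouring AluJo region, 4452 bp past PLSCR1 (chr3:146510120-146510728, minus strand), had 126 and 117 CPM against 27.7 and 29.8 CPM, a change of 2.08 ± 0.17 (adjusted p = 5.72e-17). Both PLSCR1 regions were also higher in IFNAR1sg MPS1i libraries than in IFNAR1sg DMSO libraries, by 1.5 ± 0.15 and 1.45 ± 0.17.

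RIGI, the cytosolic sensor of RNA with 5′ triphosphates, holds 2 unpaired AluSx3 regions of this set in its introns. The first (chr9:32522250-32524581, minus strand) had 17.4 and 18.3 CPM in SCR MPS1i libraries, against 2.18 and 2.06 CPM in SCR DMSO libraries, a change of 3.06 ± 0.33 (adjusted p = 1.48e-11). The second (chr9:32524687-32526043, minus strand) had 15.7 and 15 CPM against 1.77 and 1.11 CPM, a change of 3.37 ± 0.37 (adjusted p = 2.14e-11). The intronic reads of RIGI in total, which include these 2 regions, changed by 2.7 ± 0.13. In PARP12, an interferon-induced mono-ADP-ribosyltransferase, an intronic AluJb (chr7:140032833-140033827, minus strand) had 22.2 and 24.7 CPM against 3.54 and 2.69 CPM, a change of 2.9 ± 0.28 (adjusted p = 2.63e-13). An intronic AluJb of LAP3, a leucine aminopeptidase, had 18.2 and 13.9 CPM against 2.86 and 3.01 CPM, a change of 2.43 ± 0.31 (adjusted p = 3.35e-09).

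A plus-strand AluY region lies opposite IFITM3, an interferon-induced blocker of viral entry, in an intron of ENSG00000251661 (chr11:319626-321300). Over 1021 of its bases it faces IFITM3 exons. It had 21.0 and 32.9 CPM in SCR MPS1i libraries, against 5.59 and 6.5 CPM in SCR DMSO libraries, a change of 2.18 ± 0.25 (adjusted p = 1.03e-10). Whether these reads come from an antisense transcript or from IFITM3 RNA read on the other strand was not tested. An AluYm1 region of 155 bp antisense to an intron of TRUB1, a pseudouridine synthase (chr10:114965016-114965170, minus strand), held 26 and 28 reads in SCR MPS1i libraries and none in either SCR DMSO library. Taking 3 reads over the SCR DMSO pair as the floor, it was at least 25.5-fold higher with MPS1i. The remaining members of the 10 smallest p-values were RNF213 AluJb and HMGCS1 AluSc5, each with 1 exon base, which rose by 1.43 ± 0.17 and 1.18 ± 0.14.

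Over the 24 of 74 listed interferon-stimulated genes that hold tested members on their strand, 28 of 48 members were higher with MPS1i in SCR cells and none was lower, with a median of 2.2. At an unadjusted p under 0.05, 36 of the 48 passed. That list was assembled with earlier results of these data known and is no independent evidence of direction. The intronic members outside these genes had 116 higher and 842 lower of 5287.

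Of the 10 members lowered with the smallest p-values 9 were intronic, in genes of varied function. An AluSz6 region of PRKDC, the catalytic subunit of the DNA-dependent protein kinase (chr8:47903102-47904868, minus strand), had 6.57 and 4.93 CPM in SCR MPS1i libraries, against 32.9 and 30.3 CPM in SCR DMSO libraries, a change of -2.48 ± 0.25 (adjusted p = 7.75e-13). An AluY region of NEIL3, a DNA glycosylase (chr4:177351735-177352829, plus strand), had 2.53 and 2.82 CPM against 20.4 and 18.7 CPM, a change of -2.85 ± 0.31 (adjusted p = 1.79e-11). An AluSg7 region of SERINC5, a membrane protein that restricts retroviruses (chr5:80171029-80174907, minus strand), had 6.07 and 8.28 CPM against 35.6 and 30.3 CPM, a change of -2.17 ± 0.24 (adjusted p = 4.30e-11). In all of these the MPS1i libraries lay several-fold below the DMSO libraries.

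The steepest fall in this group was in an AluSq2 region of AHCYL2 (chr7:129411082-129411759, plus strand), with 0.253 and 0.705 CPM in SCR MPS1i libraries, against 10.6 and 9.66 CPM in SCR DMSO libraries, a change of -4.24 ± 0.51 (adjusted p = 4.53e-10). An AluSc region of ACACA, the cytosolic acetyl-CoA carboxylase that starts fatty acid synthesis (chr17:37151976-37153834, minus strand), had 4.55 and 3.88 CPM against 20.4 and 20.6 CPM, a change of -2.29 ± 0.28 (adjusted p = 1.10e-09). RPS25 AluSx (-2.29), MYO1E AluSq2 (-2.26), EVA1C AluSp (-2.0) and CNN2 AluSz (-1.87) completed the intronic ones. The exception was an AluY region of the non-coding gene DLGAP1-AS2 with 1 exon base, which fell by 1.42 ± 0.18 on the log2 scale. Among AluJ the smallest p-values of lowered regions belonged to intronic AluJb of XRCC2, a DNA repair gene, and of ABCC1, a drug efflux transporter. XRCC2 AluJb had 7.84 and 6.52 CPM in SCR MPS1i libraries against 24.5 and 28.2 CPM in SCR DMSO libraries (-1.89 ± 0.25), and ABCC1 AluJb had 10.9 and 4.76 CPM against 27.3 and 27.7 CPM (-1.87 ± 0.26).

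**Figure D3:**
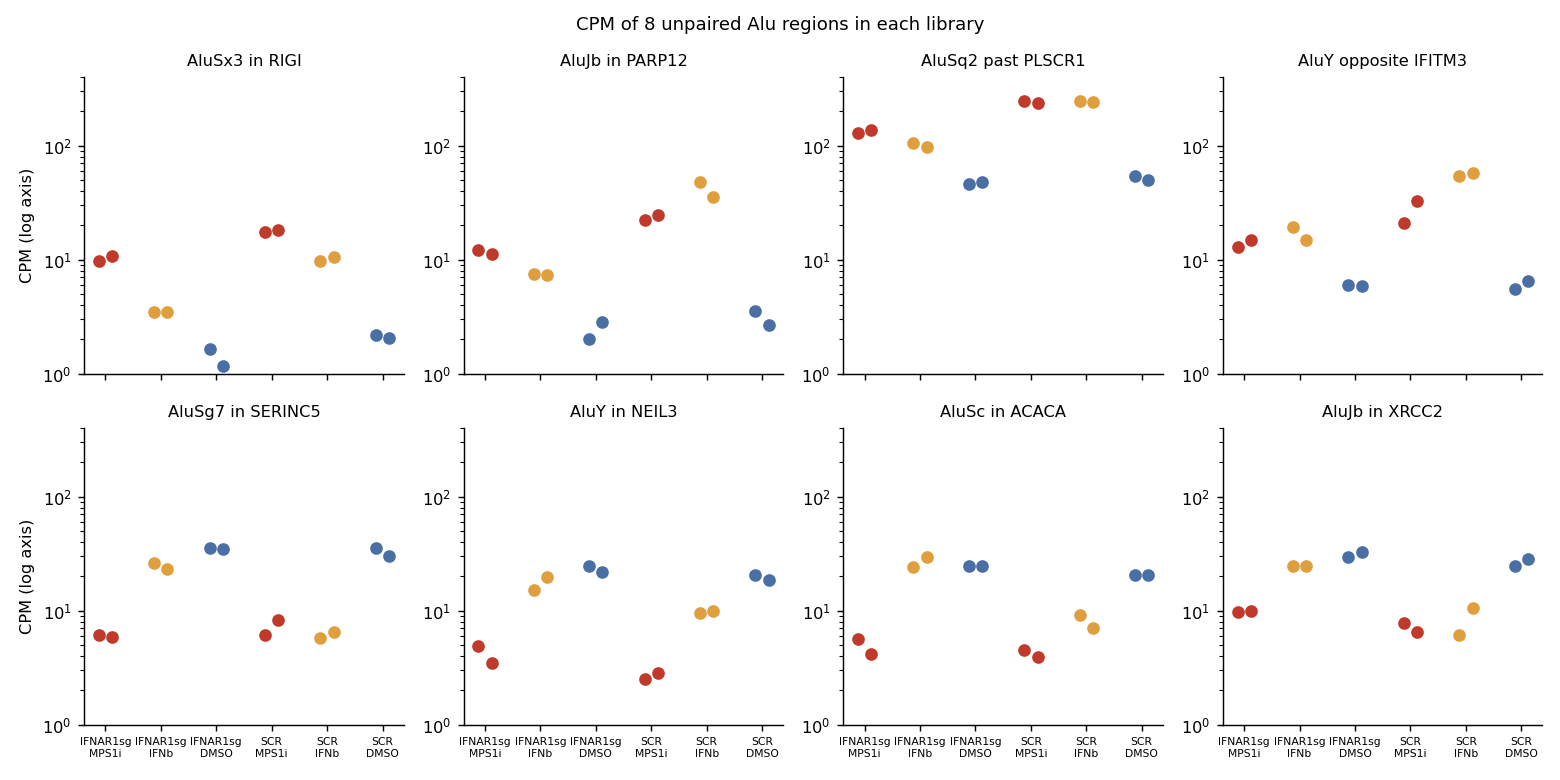
Level of 8 named unpaired Alu regions in CPM on a log axis, for each of the 12 libraries (points). In the upper 4 regions (RIGI, PARP12, PLSCR1 and the region opposite IFITM3) MPS1i and IFNb libraries of SCR cells lie above SCR DMSO, and in the lower 4 (SERINC5, NEIL3, ACACA and XRCC2) they lie below it.

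With IFNb in SCR cells, too, more members were lower than higher. Of the 6788, 531 (7.82%) were higher and 1622 (23.9%) lower, against 15% and 18.1% of all tested regions, with medians of -0.98 and -0.36. AluJ had 140 higher and 537 lower, AluS 323 and 907, and AluY 65 and 173. Intronic members had 177 higher and 1479 lower with a median of -1.25. This lay between the -1.05 of all intronic regions and the -1.41 of paired intronic Alu regions. Exon-sharing members had 245 higher and 46 lower of 594, with a median of 0.55. Whether this lean differs from that of all tested exon-sharing regions was not tested, so it is not given as a trait of the members. The 741 members with no Alu-naming region opposite had 92 higher and 93 lower, with a median of -0.03, and the other 6047 had 439 and 1529, with a median of -1.07. The lower count was 738 without SCR IFNb replicate 1, 837 without SCR IFNb replicate 2 and 1029 without SCR DMSO replicate 1.

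Without TMM factors the median of all tested regions moved to -0.19 with MPS1i and -0.67 with IFNb in SCR cells. The members then had 227 higher and 1154 lower calls with MPS1i, and 347 and 2311 with IFNb. The median of the members stayed 0.49 log2 units below that of all regions with MPS1i, and 0.63 below it with IFNb, under TMM, DESeq2 size factors and plain totals.

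The named regions raised by IFNb overlapped in part with those raised by MPS1i, but the 2 comparisons share the SCR DMSO libraries. PARP12 AluJb had 48.1 and 35.7 CPM in SCR IFNb libraries, a change of 3.73 ± 0.28 from the DMSO level given above (adjusted p = 3.41e-19). PLSCR1 AluSq2 had 246 and 240 CPM, a change of 2.21 ± 0.15 (adjusted p = 4.42e-21). An AluSx region of MASTL, a mitotic kinase, with 1 exon base (chr10:27161182-27161508, plus strand) had 134 and 125 CPM in SCR IFNb libraries, against 20 and 18.2 CPM in SCR DMSO libraries, a change of 2.76 ± 0.19 (adjusted p = 4.74e-21). The first RIGI AluSx3 region rose with IFNb to 9.74 and 10.5 CPM, a change of 2.24 ± 0.37. The TRUB1-antisense AluYm1 held 68 and 43 reads with IFNb and none with DMSO, at least 77.3-fold higher by the same floor. HMGCS1 AluSc5 and NQO1 AluSz, each with 1 exon base, rose by 1.93 ± 0.14 and 1.43 ± 0.11.

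Among the lowered ones, an intronic AluSx1 region of ZNF706 had 1.83 and 1.54 CPM in SCR IFNb libraries, against 24.1 and 18.7 CPM in SCR DMSO libraries, a change of -3.66 ± 0.36 (adjusted p = 1.74e-13). An intronic AluSc region of CNBP, a zinc finger protein that binds nucleic acids, had 6.69 and 11.7 CPM with IFNb and 43.9 and 40.2 CPM with DMSO, a change of -2.19 ± 0.25 (adjusted p = 2.48e-11). SERINC5 AluSg7, CNN2 AluSz and DLGAP1-AS2 AluY fell by 2.43, 2.53 and 2.24 on the log2 scale.

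In IFNAR1sg cells few members passed the test with IFNb, while over 1000 passed it with MPS1i. With IFNb, 17 members were higher and 6 lower, which is 0.25% and 0.0884% against 0.547% and 0.132% of all tested regions, and the median was -0.05. Without IFNAR1sg IFNb replicate 1 there were 6 and 0. Without IFNAR1sg DMSO replicate 1 there were 7 and 2, without IFNAR1sg DMSO replicate 2 there were 7 and 1, and without SCR DMSO replicate 1 there were 10 lower regions. Of the higher ones, PLSCR1 AluSq2 had 105 and 97.0 CPM in IFNAR1sg IFNb libraries, against 46.2 and 48.1 CPM in IFNAR1sg DMSO libraries, a change of 1.1 ± 0.15 (adjusted p = 3.80e-07). PNPT1 AluSz rose by 1.61 ± 0.31 (adjusted p = 8.31e-04), PARP12 AluJb by 1.57 ± 0.32 (0.0023) and the region opposite IFITM3 by 1.52 ± 0.25 (4.85e-05). PNPT1 AluSz lost its call without IFNAR1sg IFNb replicate 1 (1.24), and PARP12 AluJb lost its call without IFNAR1sg DMSO replicate 1 (1.36). The 5 lower ones with the smallest p were CEACAM6 AluY (-0.75), CANX AluSx (-0.61), PTGR1 AluSz (-0.53), LRFN3 AluSc8 (-2.23) and AASDH AluSc8 (-1.78), and each lost its call without IFNAR1sg IFNb replicate 1.

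With MPS1i in IFNAR1sg cells, 253 members (3.73%) were higher and 981 (14.5%) lower, against 9.41% and 7.85% of all tested regions, with medians of -0.43 and 0.01. AluJ had 82 higher and 355 lower, AluS 144 and 520, and AluY 27 and 102. Paired Alu regions had 70 and 71 of 1162, with a median of -0.07. Members with no Alu-naming region opposite had 70 higher and 19 lower with a median of 0.2, and the others had 183 and 962 with a median of -0.52. The counts were 167 and 615 without IFNAR1sg MPS1i replicate 1, 130 and 490 without IFNAR1sg MPS1i replicate 2, 137 higher without IFNAR1sg DMSO replicate 1, and 103 and 456 without IFNAR1sg DMSO replicate 2.

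The second RIGI AluSx3 region had 9.68 and 9.66 CPM in IFNAR1sg MPS1i libraries, against 0.728 and 0.391 CPM in IFNAR1sg DMSO libraries, a change of 4.13 ± 0.45 (adjusted p = 3.94e-11). An AluJr region 4381 bp past FOSL2, a subunit of the AP-1 transcription factor (chr2:28421693-28422733, plus strand), had 17.8 and 16.9 CPM in IFNAR1sg MPS1i libraries, against 4.73 and 2.61 CPM in IFNAR1sg DMSO libraries, a change of 2.28 ± 0.31 (adjusted p = 3.22e-08). SERINC5 AluSg7 had 6.07 and 5.91 CPM with MPS1i and 35.1 and 34.4 CPM with DMSO, a change of -2.53 ± 0.24 (adjusted p = 5.93e-14). ACACA AluSc, NEIL3 AluY, AHCYL2 AluSq2 and ABCC1 AluJb fell by 2.33, 2.46, 3.7 and 2.27 on the log2 scale.

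The dependence on the receptor was tested as the change in IFNAR1sg cells minus the change in SCR cells. For MPS1i, 3 members passed, all with a lower change in IFNAR1sg cells. An unadjusted p under 0.05 was found for 435 of the 6788, where a share of about 0.05 would have one with no difference. Among all tested regions 0.0112% were higher and 0.0505% lower in this contrast. The 3 were NQO1 AluSz (-0.72, adjusted p = 0.0177), NPM1 AluSx (-1.1, adjusted p = 0.0251) and RNF213 AluJb (-1.12, adjusted p = 0.0307), each with 1 exon base. The count ranged from 1 to 19 when single libraries were left out, and was 19 without SCR DMSO replicate 1 and 1 without SCR DMSO replicate 2. For IFNb, 651 members (9.59%) were higher and 216 (3.18%) lower in this contrast, against 7.05% and 5.11% of all tested regions, with medians of 0.88 and 0.33. Without TMM factors these were 973 and 106. The total of 867 was 490 without IFNAR1sg IFNb replicate 2, 398 without SCR IFNb replicate 1 and 461 without SCR IFNb replicate 2. Some regions and genes still passed the test with IFNb in IFNAR1sg cells. Of the 74 listed interferon-stimulated genes, 69 were tested by their summed intronic reads. With IFNb in IFNAR1sg cells 43 were higher and 0 lower (median 1.13), against 0.648% and 0.655% of all genes tested so. This list was assembled with earlier results of these data known, so the count is no independent evidence of direction.

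Between the genotypes in DMSO, 351 of the 6788 members had an unadjusted p under 0.05, where a share of about 0.05 would with no difference. After adjustment, no member was higher in IFNAR1sg cells and 3 were lower, against 0.0135% and 0.064% of all tested regions. Besides the IFNAR1 AluSz6 region, which lost its call without IFNAR1sg DMSO replicate 2 (-1.78), these were AluSz6 and AluSc8 regions antisense to exons of PHAX (-2.59, adjusted p = 0.0381) and TGFBRAP1 (-1.38, adjusted p = 0.045). The PHAX-antisense region had 0.364 and 2.61 CPM in IFNAR1sg DMSO libraries and 2.04 and 18.1 CPM in SCR DMSO libraries, and replicate 2 was the higher library in all 6 groups. Without SCR DMSO replicate 2 its difference was -0.36 and the call was lost. The TGFBRAP1-antisense region lost its call in the same setting (-1.08) and without IFNAR1sg DMSO replicate 1 (-1.17) or 2 (-1.68). The count of members that differed was 19 without SCR DMSO replicate 1 and 1 without SCR DMSO replicate 2.

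Unpaired and paired Alu regions were set against each other within a library, as the log2 ratio of their summed reads, which does not depend on scaling. Over all regions the ratio was 3.05 and 2.91 in SCR MPS1i libraries, against 3.04 and 2.95 in SCR DMSO libraries. These libraries overlapped, and the difference was -0.01 ± 0.085 (SE, two-sided exact permutation p = 1.0). In IFNAR1sg cells the ratio was 2.92 and 2.77 with MPS1i and 3.13 and 3.04 with DMSO, a difference of -0.24 ± 0.088 (exact permutation p = 0.333, the smallest that 2 libraries against 2 can give). With IFNb the ratio was 3.55 and 3.36 in SCR cells, a difference of 0.46 ± 0.105 from SCR DMSO, and 3.17 and 3.09 in IFNAR1sg cells, a difference of 0.04 ± 0.06. With libraries permuted within genotypes, the mean difference was -0.13 for MPS1i (exact permutation p = 0.167, adjusted 0.285) and 0.25 for IFNb (p = 0.111, adjusted 0.25), over 18 such tests of ratios. Replicate 1 had the higher ratio over all regions in every group, and the SEs and permutations took the libraries as unmatched.

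The ratio changed with the exon-sharing regions left out, and with 2000 bp as the limit the difference for IFNb in SCR cells was -0.06. Without exon-sharing regions, at the limit of 1000 bp, the ratio was 2.21 and 2.14 in SCR MPS1i libraries, against 2.46 and 2.43 in SCR DMSO libraries. The difference was -0.27 ± 0.036. In IFNAR1sg cells it was 2.24 and 2.14 with MPS1i and 2.54 and 2.5 with DMSO, a difference of -0.34 ± 0.052. In both genotypes the MPS1i libraries lay below the DMSO libraries, by -0.3 on average (exact permutation within genotypes, p = 0.0556, the smallest its 36 arrangements allow, adjusted 0.2). With IFNb the ratio was 2.29 and 2.2 in SCR cells, a difference of -0.2 ± 0.043, and 2.53 and 2.53 in IFNAR1sg cells, a difference of 0.01 ± 0.019. The direction for IFNb in SCR cells was thus the opposite of that over all regions.

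The ratio also went with place. Of the reads of paired regions 42.9% lay in introns and 29.5% between genes, while unpaired regions had 45.1% and 7.58%. Over intronic regions alone the difference with MPS1i was -0.1 ± 0.025 in SCR cells and -0.21 ± 0.045 in IFNAR1sg cells (-0.16 within genotypes, exact permutation p = 0.0556). With IFNb it was 0.12 ± 0.037 in SCR cells and 0.03 ± 0.025 in IFNAR1sg cells, so the direction for IFNb in SCR cells was that of all regions. When any Alu-naming region counted as a neighbour, the ratio over all regions was higher with MPS1i, by 0.49 in SCR cells and 0.7 in IFNAR1sg cells, and lower with IFNb in SCR cells, by -0.05. The sign of the ratio difference thus depended on the definition of a neighbour. Within genotypes, the ratio of AluJ to AluS among unpaired regions differed by -0.08 with MPS1i and -0.16 with IFNb, and that of AluY to AluS by -0.12 and -0.23 (exact permutation p = 0.0556 for the first 3 and 0.111 for the last, adjusted 0.2 and 0.25). Without exon-sharing regions these differences were -0.07, -0.08, 0.0 and 0.0.

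**Figure D4:**
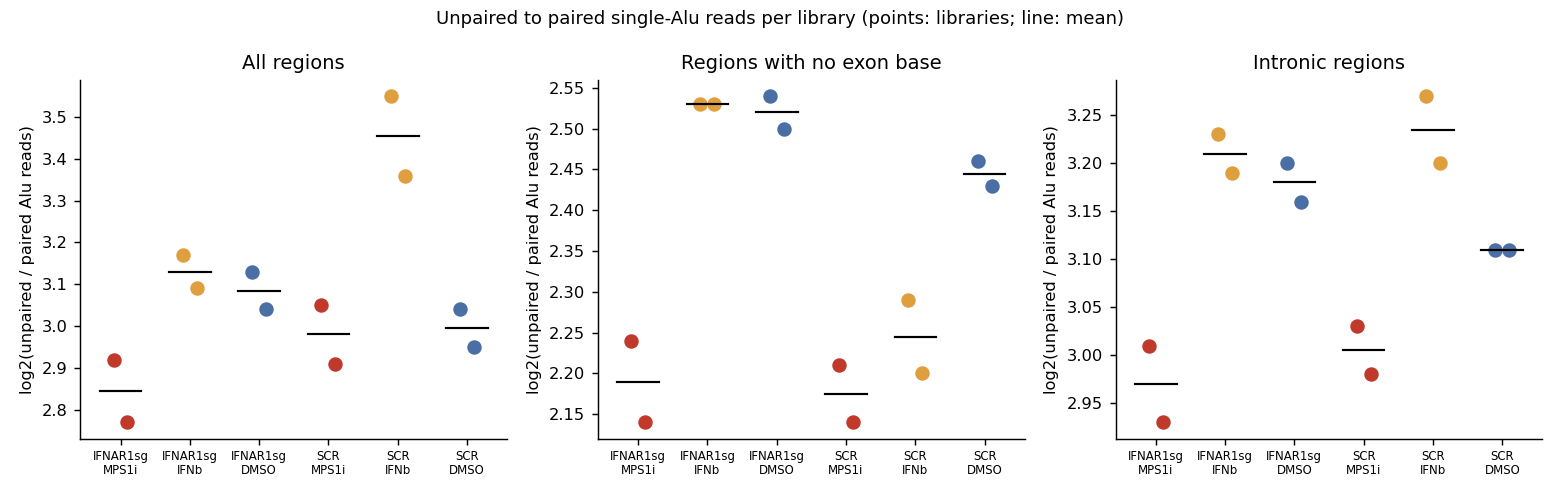
log2 ratio of summed reads in unpaired over paired Alu regions, per library (points) and group mean (lines), for all regions, for those that share no base with an exon, and for intronic ones. The y axes differ between panels and do not start at 0. SCR IFNb libraries lie above SCR DMSO over all regions (3.55 and 3.36 against 3.04 and 2.95) and below it without exon-sharing regions (2.29 and 2.2 against 2.46 and 2.43).

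Summed by subfamily without exon-sharing regions, every AluJ subfamily fell with both treatments in SCR cells. Of 47 unpaired Alu subfamily sums, 1 was higher and 16 were lower with MPS1i, against 15.5% higher and 5.81% lower among all 1823 subfamily sums of the table, with medians of -0.26 and 0.13. The 16 were all 4 AluJ, 9 of 17 AluS and 3 of 25 AluY sums. AluJb, the largest, had 3336 and 3353 CPM in SCR MPS1i libraries, against 4394 and 4332 CPM in SCR DMSO libraries, a change of -0.38 ± 0.06 (adjusted p = 2.72e-06). AluSz6 fell by 0.39 ± 0.07 and AluY by 0.26 ± 0.07 on the log2 scale. The 1 higher sum was AluYi6_4d, a minor AluY subfamily, with 5.56 and 4.23 CPM in SCR MPS1i libraries against 1.5 and 2.06 CPM in SCR DMSO libraries (1.44 ± 0.45, adjusted p = 0.0141), a call lost without SCR MPS1i replicate 1 (1.25) or SCR DMSO replicate 1 (1.22). The lower count was 8 without SCR MPS1i replicate 1, and AluSx (-0.23) and AluY (-0.22) lost their calls in that setting.

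With IFNb in SCR cells 38 of the 47 sums were lower and AluYi6_4d was higher, against 36.9% and 6.64% of all sums. AluYi6_4d lost this call without SCR IFNb replicate 2 (1.04) or SCR DMSO replicate 1 (1.29). With MPS1i in IFNAR1sg cells 10 were lower and none higher, against 4.33% and 21.3%, and 6 were lower without IFNAR1sg MPS1i replicate 1 and none without IFNAR1sg DMSO replicate 2. With IFNb in IFNAR1sg cells none passed the edgeR test in either direction, 1 had an unadjusted p under 0.05, and 0.0% and 0.0549% of all sums were higher and lower. The change with IFNb was the higher one in IFNAR1sg cells for 29 sums and the lower one for none, against 19.1% and 3.07% of all sums, and the 29 were 4 AluJ, 15 AluS and 10 AluY sums. The AluJb and AluSx falls rested on leaving out exon-sharing regions. With those included the log2 changes were -0.09 and -0.08 with MPS1i and 0.0 and 0.02 with IFNb in SCR cells, none of them called.

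The paired sums of the same subfamilies had 0 higher and 1 lower with MPS1i in SCR cells, and 5 higher and 0 lower with MPS1i in IFNAR1sg cells, of 36 tested. With MPS1i in SCR cells AluJb changed by -0.1 ± 0.08 in paired regions (adjusted p = 0.352), AluSz6 by -0.02 ± 0.1 and AluY by 0.11 ± 0.08, while paired AluSx fell by 0.25 ± 0.08, close to the unpaired -0.27 ± 0.07. Of 36 subfamilies tested in both forms, the signed change of the unpaired sum was the lower one in 31 with MPS1i in SCR cells, 31 with MPS1i in IFNAR1sg cells, 21 with IFNb in SCR cells and 19 with IFNb in IFNAR1sg cells. These comparisons share their DMSO libraries within a genotype. No test of the difference between forms was made for a single subfamily. The sums also mix places. Over intronic regions alone, class levels with MPS1i in SCR cells changed by -0.52 unpaired and -0.45 paired for AluJ. The changes were -0.46 and -0.34 for AluS, and -0.44 and -0.25 for AluY. With IFNb in SCR cells they were -0.89 and -1.12, -0.81 and -0.89, and -0.8 and -0.71. The part of place in the difference between forms was not tested.

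The changes of intronic members and of the introns that hold them were set side by side. For 4879 intronic members in 2713 host genes with at least 100 reads in regions without an Alu name, the change of the member was set beside that of those host reads, on the log2(CPM + 0.1) scale for the host. With MPS1i in SCR cells Pearson's r was 0.45 and Spearman's rho was 0.4, across regions that share libraries and often a gene. The values were 0.36 and 0.3 with IFNb in SCR cells, 0.44 and 0.42 with MPS1i in IFNAR1sg cells, and 0.19 and 0.14 with IFNb in IFNAR1sg cells. With MPS1i in SCR cells the median change was -0.78 for the members and -0.52 for their hosts, and the median of the differences was -0.24, with quartiles of -0.92 and 0.4. It was -0.3 for AluJ, -0.23 for AluS and -0.16 for AluY. With IFNb in SCR cells the medians were -1.28 and -0.99, with MPS1i in IFNAR1sg cells -0.67 and -0.44, and with IFNb in IFNAR1sg cells -0.07 and -0.09. The genes with the most tested intronic members were ABCC1 with 17, SMARCC1 and PDE4D with 14 each, PDS5A with 13 and STAG1 with 12.

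**Figure D5:**
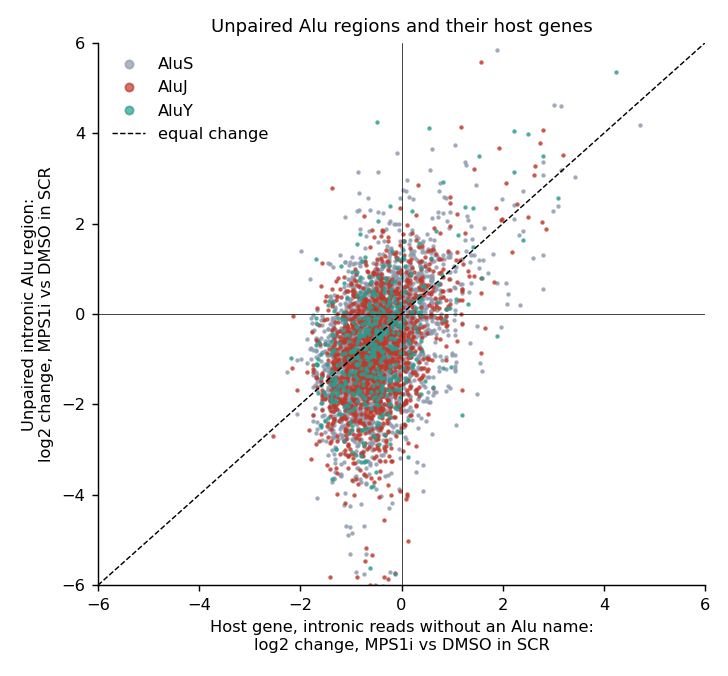
Change of intronic unpaired Alu regions (y axis, log2 fold change from edgeR) against the change of intronic reads without an Alu name in the gene that holds them (x axis, log2 of CPM + 0.1), MPS1i against DMSO in SCR cells, by class. The axes hold 4858 of the 4879 members, and the points spread along the diagonal with most of them below 0 on both axes.

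The genes that sense or process such RNA were followed through their own intronic reads. Their lists were chosen with earlier results of these data known, so the counts are no independent evidence of direction. Of 20 listed sensing genes 19 were tested, and with MPS1i in SCR cells 13 were higher and 2 lower, against 22.2% and 22.0% of all 14348 gene sums, with medians of 2.62 and 0.07. IFIH1, which encodes MDA5, had 193 and 174 CPM in SCR MPS1i libraries, against 26.6 and 28.8 CPM in SCR DMSO libraries (2.73 ± 0.13). EIF2AK2, which encodes the kinase PKR, had 200 and 199 CPM against 77.2 and 75.3 CPM (1.39 ± 0.11). The 2 lower ones were MAVS (-1.41), the adaptor of RIG-I and MDA5, and RNF135 (-0.95), a ubiquitin ligase of RIG-I. With MPS1i in IFNAR1sg cells 12 were higher and 2 lower, against 27.1% and 19.7% of all gene sums. With IFNb in IFNAR1sg cells 9 were higher and none lower, against 0.648% and 0.655%.

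Of 18 listed genes that bind, edit or process Alu and double-stranded RNA, 17 were tested, and 2 were higher and 8 lower with MPS1i in SCR cells, with a median of -0.43, against 22.2% and 22.0% of all gene sums. ADAR, the editing enzyme, had 49.0 and 40.3 CPM in SCR MPS1i libraries, against 26.4 and 30.6 CPM in SCR DMSO libraries (0.64 ± 0.16, adjusted p = 3.34e-04). HNRNPC, which keeps antisense Alu sequence from being spliced as exons, had 93.0 and 97.3 CPM against 234 and 213 CPM (-1.23 ± 0.11, adjusted p = 7.58e-20). DHX9, a helicase that unwinds Alu duplexes, had 26.3 and 25.4 CPM against 56.7 and 61.9 CPM (-1.2 ± 0.15, adjusted p = 3.29e-11). SRP9, an Alu-binding protein of the signal recognition particle, fell by 0.58 ± 0.13 on the log2 scale. STAU1 was the other higher gene (0.46). Of 16 listed RNA polymerase III genes 15 were tested, with 1 higher and 7 lower with MPS1i in SCR cells (22.2% and 22.0% of all gene sums), and 0 higher and 5 lower with MPS1i in IFNAR1sg cells (27.1% and 19.7%). These are intronic reads in a J2 precipitate and do not measure mature mRNA.

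The most abundant members all touched an exon by 1 base. TXNRD1 AluSc, in the gene of thioredoxin reductase 1, had 5931 and 5478 CPM in SCR MPS1i libraries, 9156 and 8474 CPM in SCR IFNb libraries and 4316 and 4022 CPM in SCR DMSO libraries. NQO1 AluSz, in a quinone reductase gene, had 2297 and 2031, 4325 and 3890, and 1672 and 1379 CPM in the same groups. TNPO1 AluJb, CYP24A1 AluJb and HNRNPUL1 AluSq2 followed at 391 to 1079 CPM across the 12 libraries. Away from exons, and chosen after their values had been seen, the highest were AP1S3 AluSq2 at 152 to 302 CPM across libraries, the PLSCR1 AluSq2 described above, and regions of VPS35L, CMBL and ENSG00000269476 at 59.9 to 154 CPM.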

How the data were processed

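The authors deposited 1 table of raw read counts per strand-specific region in 12 libraries of J2-precipitated RNA, with a repeat name where one was assigned. Per the submitters' processing notes, the tools were HOMER, featureCounts, STAR, cutadapt, Trimmomatic and Trim Galore, with GRCh38, and versions and settings are not given in the sources used here. How reads with several genomic matches were counted is likewise not given, and such reads can be split or lost among near-identical Alu copies. Regions of the same strand do not overlap one another, while regions of opposite strands can.

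Groups were taken from the labels. Counts were tested with edgeR 4.0.16 (R 4.3.3, limma 3.58.1, quasi-likelihood F-test) in 1 fit of all 6 groups. Library totals were taken over all 5254113 regions. edgeR's expression filter (count of 10 and total of 15) came next, and TMM factors were computed from the regions that passed it. Adjusted p-values are Benjamini-Hochberg values over the 89111 regions that passed, and a region was called at an adjusted p under 0.05. The fit had 6 residual degrees of freedom, a prior of 72.9 and a common dispersion of 0.0313. CPM are counts per 1000000 of the scaled library total. Sums by subfamily, without exon-sharing regions, and by gene were fitted in the same way. Code was tested on simulated data. GENCODE 29 gave genes, exons and places, and 58252 of its 58780 gene IDs matched a symbol table. Overlaps used bedtools 2.31.1, and ratios and permutations used Python 3.11.15 with numpy 2.4.6, pandas 2.3.3 and scipy 1.17.1. Figures used matplotlib 3.10.9.

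The rule for members uses no read counts, but the rule and the gene lists were chosen with earlier results of these data known. Members are named by the smallest p, 10 in each direction for MPS1i in SCR cells, 5 in each direction for the other comparisons and 2 per class, together with the 5 most abundant. Alternatives were DESeq2 1.42.0, other scalings and filters, other neighbour rules, a block for the replicate number, exon-sharing regions left out and single libraries left out. Depth was 3739443 to 7430687 reads per library, and 46.1% of all regions held no read. Element sequences are not reported here.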

Additional observations from a re-analysis of the deposited data

Results flagged for a closer look

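The response to a treatment differed between the genotypes by the interaction test for 3 members with MPS1i, for 867 members with IFNb and for 29 of the subfamily sums with IFNb. The values below are the change in IFNAR1sg cells minus the change in SCR cells, on the log2 scale, for the members that the naming rule picks, and no explanation for them was tested.

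With MPS1i the difference was -0.72 for NQO1 AluSz, -1.1 for NPM1 AluSx, in the gene of the nucleolar chaperone nucleophosmin, and -1.12 for RNF213 AluJb, in the gene of an interferon-induced ubiquitin ligase. All of these touch an exon by 1 base, and each lost its call without SCR DMSO replicate 2, at -0.6, -0.94 and -0.91. NQO1 also lost it without IFNAR1sg DMSO replicate 1 (-0.68). NPM1 and RNF213 lost it without IFNAR1sg MPS1i replicate 2 (-0.91 and -0.95) or SCR MPS1i replicate 1 (-0.95 and -1.01), NPM1 without IFNAR1sg DMSO replicate 2 (-1.07) and RNF213 without IFNAR1sg DMSO replicate 1 (-1.07).

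With IFNb the negative differences, where the change was higher in SCR cells, were -2.62 for MASTL AluSx, -2.1 for DBF4B AluSx1, -1.54 for HMGCS1 AluSc5, -1.3 for NQO1 AluSz and -0.99 for TXNRD1 AluSc. DBF4B AluSx1 had 75.8 and 66.1 CPM in SCR IFNb libraries, against 17.9 and 15.8 CPM in SCR DMSO libraries, while IFNAR1sg cells had 21.7 and 20.4 CPM with IFNb and 24.2 and 19.2 CPM with DMSO. DBF4B encodes a regulatory subunit of the replication kinase CDC7, and HMGCS1 the synthase that makes HMG-CoA for sterol synthesis. The positive differences, where the level in SCR cells was lowered, were 2.87 for ZNF706 AluSx1, 2.6 for EVA1C AluSp, 2.43 for ABCC1 AluJb, 2.11 for CNBP AluSc and 1.9 for DLGAP1-AS2 AluY. These calls on the IFNb response were kept under all alternatives run for them.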

How the results depend on the processing

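The counts of called members depended on the settings, and for each result below that did not hold the cause was not tested. With DESeq2's Wald test in place of edgeR, 170 members were higher and 447 lower with MPS1i in SCR cells, 796 were lower with IFNb in SCR cells, 86 were higher and 469 lower with MPS1i in IFNAR1sg cells, and 10 were higher and 3 lower with IFNb in IFNAR1sg cells. It gave 6 members whose MPS1i response differed between genotypes, 430 for IFNb and 0 members that differed in DMSO. With every region of at least 15 reads tested, 352 were higher with IFNb in SCR cells, 628 lower with MPS1i and 1 lower with IFNb in IFNAR1sg cells, 1 differed in the MPS1i response and 11 in DMSO. With a fit of only the groups compared, 352 were higher with IFNb in SCR cells, 1 differed in the MPS1i response, 0 differed in DMSO and 5 subfamily sums were lower with MPS1i in IFNAR1sg cells. Without the SCR IFNb libraries, 11 were higher with IFNb in IFNAR1sg cells, 1 differed in the MPS1i response and 1 in DMSO. Without TMM factors, 347 were higher with IFNb in SCR cells, 1 differed in DMSO, and 31 and 23 subfamily sums were lower with MPS1i in SCR and IFNAR1sg cells.

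Counts also changed with the definition of a member, which changes how many are tested (741 with the first rule below, against 6788). With any Alu-naming region as a neighbour, the counts higher and lower were 59 and 25 with MPS1i in SCR cells, 92 and 93 with IFNb in SCR cells, 70 and 19 with MPS1i in IFNAR1sg cells and 6 and 0 with IFNb in IFNAR1sg cells, and 0 and 53 differed in the MPS1i and the IFNb response. Over members of at most 400 bp, a setting added after seeing the data, they were 73 and 80, 178 and 136, 38 and 87, and 4 and 2, with 1 and 111 for the responses and 0 in DMSO. Leaving out members with an unnamed Alu of the same strand nearby, also added after seeing the data, gave 444, 872 and 486 lower in the first 3 comparisons and 483 for the IFNb response. Without exon-sharing members, 286 were higher with IFNb in SCR cells, 3 were lower with IFNb in IFNAR1sg cells and 0 differed in the MPS1i response. A limit of 2000 bp left 1 for the MPS1i response, and 5000 bp left 149 higher with MPS1i and 8 with IFNb in IFNAR1sg cells and 1 for the MPS1i response. With exon-sharing regions in the subfamily sums, 5 were higher and 5 lower with MPS1i in SCR cells, 8 and 19 with IFNb in SCR cells, 2 higher with MPS1i and 1 higher with IFNb in IFNAR1sg cells.

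For the class levels over all members, the log2 differences for MPS1i in SCR cells, IFNb in SCR cells and MPS1i in IFNAR1sg cells were as follows without TMM factors. They were -0.27, -0.38 and -0.29 for AluJ, -0.15, -0.08 and -0.24 for AluS, and -0.32, -0.49 and -0.31 for AluY. With any Alu-naming neighbour they were 0.4, -0.21 and 0.54, then 0.41, 0.07 and 0.54, then 0.5, 0.23 and 0.48. Without exon-sharing members they were -0.34, -0.73 and -0.24 for AluJ, -0.26, -0.59 and -0.17 for AluS, and -0.25 and -0.58 in SCR cells for AluY. For AluS in SCR cells with MPS1i and IFNb they were -0.03 and 0.27 with DESeq2 size factors, -0.02 and 0.17 at 2000 bp and -0.03 and 0.19 at 5000 bp. For AluY with MPS1i in SCR cells they were -0.19, -0.17 and -0.19 in those settings and -0.14 at 500 bp. The unpaired to paired ratio differed by 0.49, -0.05 and 0.7 with any Alu-naming neighbour. For IFNb in SCR cells it differed by -0.2 without exon-sharing regions and -0.06 at 2000 bp, and for IFNb in IFNAR1sg cells by 0.0 at 2000 and at 5000 bp.

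With single libraries left out, the counts higher and lower ranged over 187 to 354 and 330 to 964 with MPS1i in SCR cells, 378 to 599 and 738 to 1712 with IFNb in SCR cells, 103 to 299 and 456 to 1053 with MPS1i in IFNAR1sg cells, and 6 to 25 and 0 to 10 with IFNb in IFNAR1sg cells. They ranged over 1 to 19 for the MPS1i response, 398 to 934 for the IFNb response and 1 to 19 in DMSO. Subfamily sums ranged over 0 to 1 and 8 to 20, 0 to 1 and 28 to 38, 0 and 0 to 13, and 0 and 0. For MPS1i in SCR, IFNb in SCR, MPS1i in IFNAR1sg and IFNb in IFNAR1sg cells, class levels ranged over -0.13 to -0.07, -0.08 to -0.03, -0.2 to -0.11 and -0.04 to 0.01 for AluJ. The AluS ranges were 0.0 to 0.03, 0.23 to 0.25, -0.14 to -0.07 and -0.02 to 0.05, and the AluY ranges -0.15 to -0.14, -0.21 to -0.13, -0.23 to -0.12 and -0.11 to 0.03. The ratio ranged over -0.08 to 0.06, 0.37 to 0.56, -0.32 to -0.17 and 0.0 to 0.08. Where leaving out a library left 1 in its group, the fit assumes that it varies like the other groups.

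Replicate numbers are shared between groups. Over the tested regions, deviations of same-numbered libraries correlated only at -0.0543 to 0.0849. The unpaired to paired ratio over all regions was nonetheless higher in replicate 1 than in replicate 2 in every group. Whether the numbers mark a pairing is not stated, and the class levels and ratios were compared without one. With the replicate number as a block, 10 members differed in the MPS1i response and 9 in DMSO, and the other counts stayed within 1.5 times. Of 1517 alternative values for the 81 single regions and sums named, 1431 kept direction and call, 83 lost the call, 2 gained it and 1 turned round, the AluSx sum with IFNb in SCR cells, at 0.02 with exon-sharing regions included. The NQO1, NPM1 and RNF213 differences in the MPS1i response were among the lost calls, NQO1 at -0.66 with every region of at least 15 reads tested. Of the members 43.9% held no read and 1.84% could be tested, and no statement is made about the rest.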
